A study of Mus musculus with 12 samples.

Results

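To see how subunit mRNAs of a chromatin remodelling complex shifted as fibroblasts became pluripotent, 10 BAF genes were followed through 12 mouse mRNA-Seq libraries. Protein levels and the make-up of assembled complexes were not measured. The genes were taken by symbol from a table of 24098 genes: Smarca4, Smarca2, Smarcc1, Smarcc2, Smarcd1, Smarcd2, Smarcd3, Arid1a, Arid1b and Actl6a. The list was chosen with earlier results of these data known. All 10 symbols were in the table, and all 10 reached at least 1 FPKM in at least 1 library, as did 14178 genes in all. FPKM, the deposited unit, counts sequenced fragments per length of transcript and per mapped fragments, so that levels of different genes can be set side by side within a library.

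Mouse embryonic fibroblasts (MEFs) with GFP at the Oct4 locus were infected with retroviruses (pMXs) carrying Oct4, Sox2, Klf4 and c-Myc (OSKM). D0 was the wild-type MEF library before induction and D3 held unsorted cells of day 3. On days 6 and 9, sorting used Thy-1, a fibroblast surface protein, and gave Thy-1- (D6T-, D9T-) and Thy-1+ (D6T+, D9T+) fractions. Cells of days 12 and 16 were sorted on SSEA-1, a sugar epitope of pluripotent cells, into SSEA-1+ (D12S+, D16S+) and SSEA-1- (D12S-, D16S-) fractions. The study takes the Thy-1- and SSEA-1+ cells as those on a successful path. Fully reprogrammed iPSCs and ESD3 embryonic stem cells (mESCs) were the end points. D0 and mESCs are labelled wild-type, and the other 10 libraries came from infected cells. The labels give serum medium for MEFs and a serum-replacement medium for reprogramming cells, iPSCs and mESCs, while the methods of the study list further media, some with serum. Where media differed between D0 and the infected cells, medium and infection cannot be told apart. Each condition had 1 library and 0 replicates, so every difference below is a difference between libraries, with no test. In cell mixtures such as these, fewer cells of a type and less RNA per cell cannot be told apart.

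BAF, the mammalian SWI/SNF complex, uses the energy of ATP to move or evict nucleosomes and so opens regulatory DNA. Several of its positions can be filled by either of a set of paralogous proteins, and cell types differ in the paralog they use. The form described in mouse embryonic stem cells, esBAF, is built on the ATPase BRG1 (Smarca4), the scaffold protein BAF155 (Smarcc1), BAF60A (Smarcd1), BAF250A (Arid1a) and BAF53A (Actl6a), and is known for lacking BRM (Smarca2) and BAF170 (Smarcc2).

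The labels were first held against marker genes. The sum of 5 fibroblast markers was 7075 FPKM in D0, 32.6 in D16S+, 53.3 in iPSCs and 36.7 in mESCs, and that of 5 pluripotency markers went from 1.95 in D0 to 4334 in D16S+. D16S- lay between, at 422 FPKM for the former and 112 for the latter. Thy1 was at 3.24 FPKM in D6T- and 477 in D6T+, and Nanog at 192 in D16S+ and 8.99 in D16S-. Pou5f1 was at 1.99 FPKM in D0 and between 587 and 2769 elsewhere, with viral and endogenous reads combined. The sum of 3 leukocyte markers ranged from 10.6 FPKM in D0 to 135 in D16S-, nearly all of it Cd68 and Csf1r, while Ptprc stayed at or below 0.425 in all 12 libraries. The sum of 4 neural markers ranged from 15.5 FPKM in D0 to 137 in D3, of which Tubb3 alone made up 133. In D3, Map2 was at 3.84 FPKM, Neurod1 at 0.209 and Sox1 at 0.0315. Total FPKM per library ran from 484968 to 648264, and sequencing depth relative to D0, read from the steps of low values, from 0.968 to 1.56. Absolute depth is unknown.

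The 10 genes are spread over 9 chromosomes of the mm9 build. The ATPase genes are Smarca4 (chromosome 9, 21420613 to 21508674, plus strand) and Smarca2 (chromosome 19, 26679650 to 26852811, plus strand). The scaffold genes are Smarcc1 (chromosome 9, 110034541 to 110142682, plus strand) and Smarcc2 (chromosome 10, 127896292 to 127927229, plus strand). The Smarcd genes are Smarcd1 (chromosome 15, 99532718 to 99544426, plus strand), Smarcd2 (chromosome 11, 106124493 to 106134286, minus strand) and Smarcd3 (chromosome 5, 24096636 to 24107830, minus strand). The ARID genes are Arid1a (chromosome 4, 133234923 to 133312684, minus strand) and Arid1b (chromosome 17, 4994332 to 5347656, plus strand). Actl6a lies on chromosome 3 (32607468 to 32625890, plus strand). All 10 are annotated as protein-coding, and each value is a gene-level value over the exons of the gene.

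The 250 bases upstream of the start are shown for a paralog pair whose order reversed, Smarcc1 and Smarcc2, and for the members with the largest upward and downward differences between D0 and iPSCs, Actl6a and Smarcd3. They are printed 5′ to 3′ on the strand of the gene, from RefSeq starts of the GRCm38.p6 build, each found once in mm9 by exact match, and their positions are those in mm9. The starts of the 2 annotations differ for some genes. Against the gene positions above, the windows of Smarcd2 and Arid1b and 1 of the 2 windows of Arid1a lie inside the gene, and that of Smarcd3 overlaps its first bases. Capitals mark GC boxes, GGGCGG or its reverse complement CCGCCC, which may overlap each other.

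Smarcc1, chromosome 9, 110034278 to 110034527, plus strand: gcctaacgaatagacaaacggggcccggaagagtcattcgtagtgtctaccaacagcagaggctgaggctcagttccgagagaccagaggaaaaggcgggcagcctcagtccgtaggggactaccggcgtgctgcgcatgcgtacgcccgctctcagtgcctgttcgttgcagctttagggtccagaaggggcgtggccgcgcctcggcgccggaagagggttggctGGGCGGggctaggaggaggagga
Smarcc2, chromosome 10, 127896042 to 127896291, plus strand: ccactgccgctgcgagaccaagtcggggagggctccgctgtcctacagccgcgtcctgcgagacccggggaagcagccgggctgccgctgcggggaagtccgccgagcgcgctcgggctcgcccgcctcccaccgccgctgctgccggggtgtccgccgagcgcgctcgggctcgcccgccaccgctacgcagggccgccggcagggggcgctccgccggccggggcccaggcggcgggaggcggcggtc
Actl6a, chromosome 3, 32607218 to 32607467, plus strand: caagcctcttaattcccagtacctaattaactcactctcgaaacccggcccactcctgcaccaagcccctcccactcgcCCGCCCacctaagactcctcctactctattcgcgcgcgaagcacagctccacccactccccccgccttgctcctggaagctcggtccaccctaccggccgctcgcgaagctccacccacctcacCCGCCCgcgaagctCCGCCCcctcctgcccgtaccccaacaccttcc
Smarcd3, chromosome 5, 24107821 to 24108070, minus strand: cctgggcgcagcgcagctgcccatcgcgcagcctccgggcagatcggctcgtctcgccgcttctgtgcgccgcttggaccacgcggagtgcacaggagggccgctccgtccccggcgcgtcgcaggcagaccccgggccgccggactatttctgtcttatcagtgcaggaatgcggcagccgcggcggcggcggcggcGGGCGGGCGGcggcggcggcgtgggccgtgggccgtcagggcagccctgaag

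A GC box stood in 10 of 11 such windows (Arid1a has 2 starts) and in 9 of the 10 genes, Smarcc2 being the exception, against 32.7% of 32851 upstream windows of the same length. No window held an E-box (CACGTG, the letters bound by Myc, its own reverse complement), present in 6.02% of all windows, a CCAAT box (CCAAT or ATTGG, 33.8%) or an octamer (ATGCAAAT or ATTTGCAT, 1.60%). The GC content of the 11 windows was 56.4% to 81.6%, and the median over all windows was 52.4%. A match is a description of the letters and says nothing of which factor binds.

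**Figure D1:**
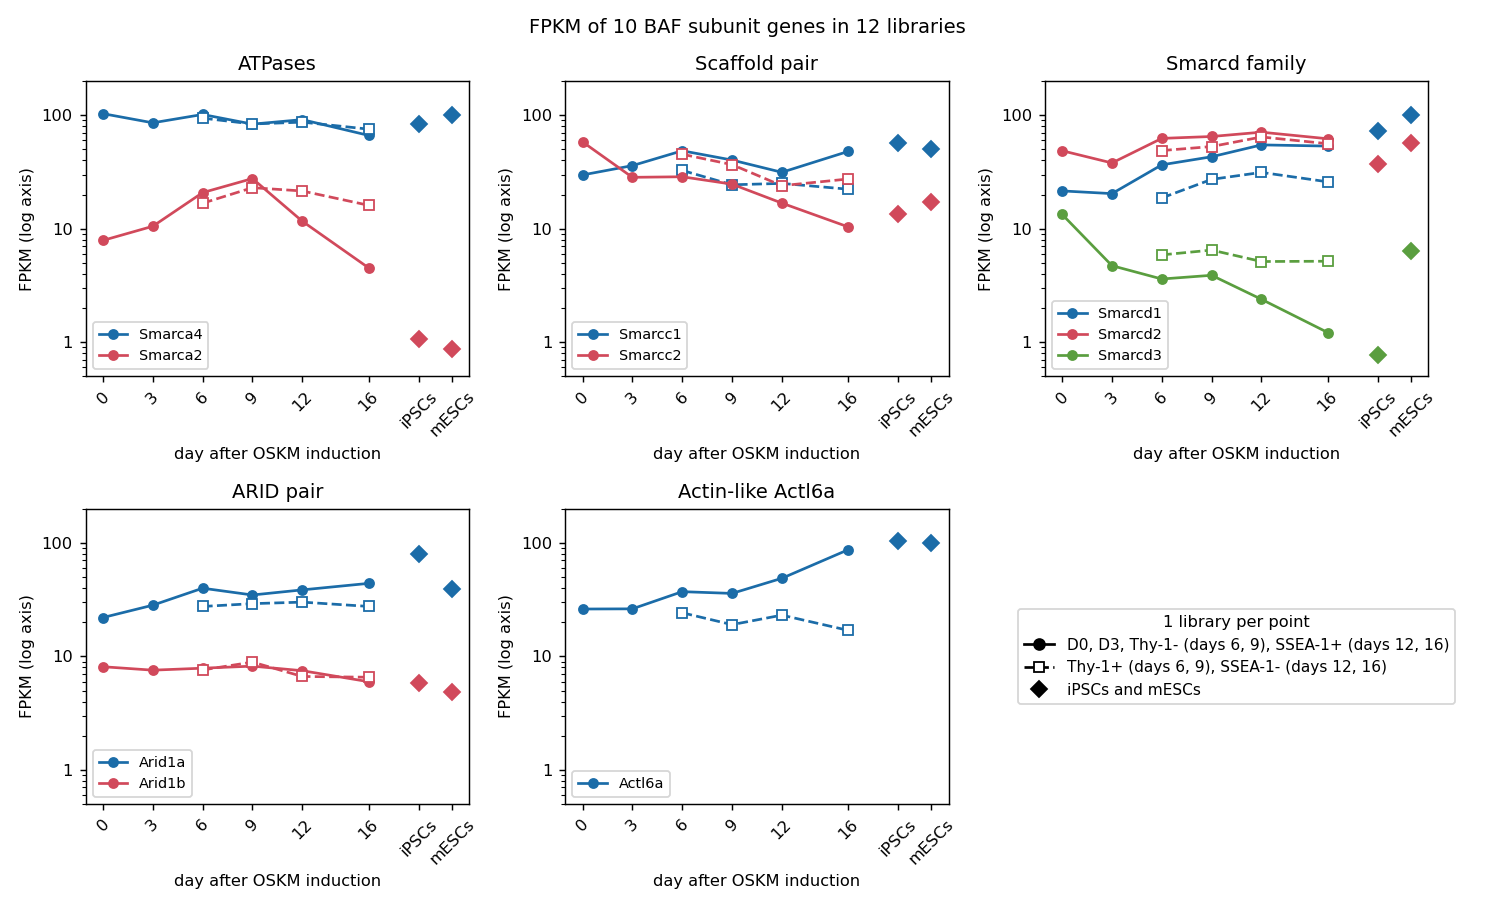
FPKM (log axis) of the 10 genes by day after OSKM induction, 1 library per point, with solid lines for D0, D3 and the Thy-1- or SSEA-1+ fractions, dashed lines for the Thy-1+ or SSEA-1- fractions and diamonds for iPSCs and mESCs. Smarca4 keeps between 66.3 and 103 FPKM while Smarca2 climbs to 27.6 FPKM in D9T- and is near 1 FPKM in the end points, and the lines of Smarcc1 and Smarcc2 cross between D0 and D3.

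The end points were compared first. Between D0 and iPSCs, 3 of the 10 genes were at least 2-fold higher in iPSCs (Actl6a, Arid1a and Smarcd1) and 3 were at least 2-fold lower (Smarcd3, Smarca2 and Smarcc2), while Smarca4, Smarcc1, Smarcd2 and Arid1b differed less. Fold thresholds are on the log2(FPKM + 1) scale, which understates differences of low genes. Of all 14178 genes, 18.7% were above this threshold in iPSCs and 21.6% were below it. The median difference over the 10 genes was -0.33 and that over all genes 0.03. With libraries scaled to the same total FPKM, the balance over all genes turned, from 2650 higher and 3064 lower (46.4% of both together higher) to 3248 higher and 2530 lower (56.2%). Under that scaling 4 members were at least 2-fold higher, as Smarcc1 went from 0.92 to 1.16, and 3 were lower.

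mESCs and iPSCs were set against the same D0 library. In mESCs, 2 members were at least 2-fold higher than in D0 (Smarcd1 and Actl6a) and 2 lower (Smarca2 and Smarcc2), where 20.7% and 21.9% of all genes were. Smarcd3, with a log2 difference of -0.96, and Arid1a, with 0.81, lay just short of the threshold in mESCs.

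The error of single values is large. The cuffdiff interval around an FPKM value had a median half-width of 98.4% of the value over the 120 values of the members, and its lower end was 0 for 47 of them. As a result the intervals overlapped in all 660 pairings of a member with 2 libraries, and in all 11 steps between libraries neighbouring in level for each gene. Over all genes, 0.987% had separate intervals in iPSCs and D0. These intervals are modelled and hold no biological replicates.

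**Figure D2:**
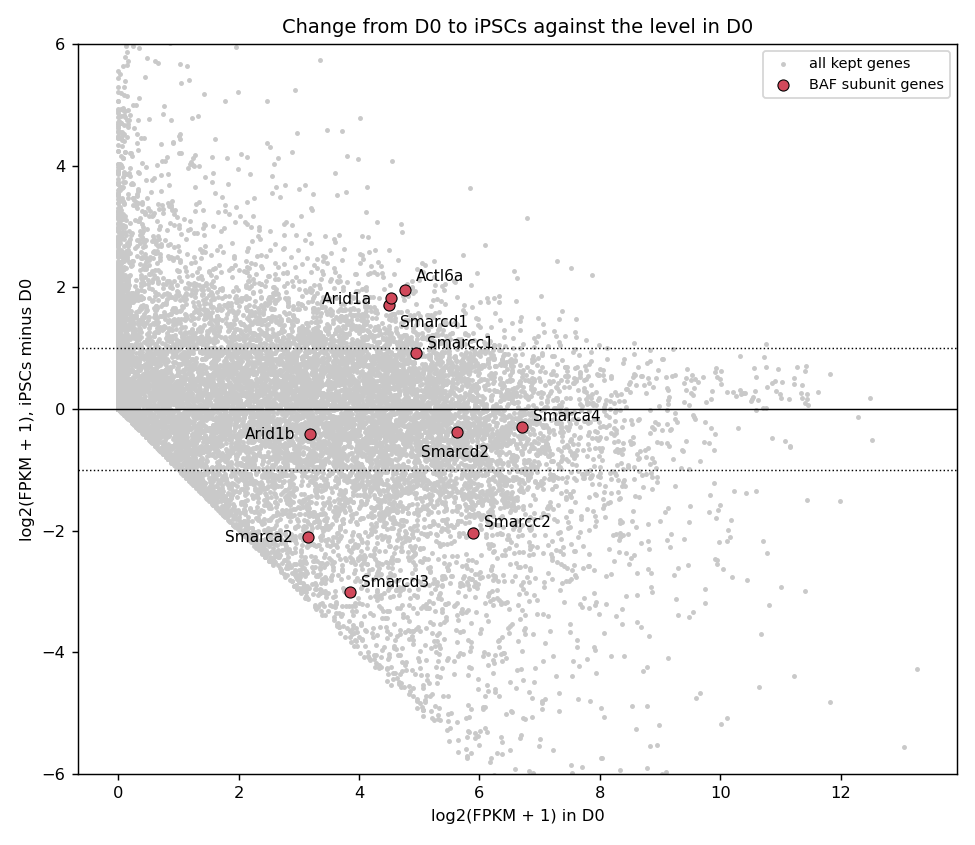
Difference in log2(FPKM + 1) between iPSCs and D0 (y) against log2(FPKM + 1) in D0 (x) for the kept genes (grey) and the 10 BAF subunit genes (red), with dotted lines at 2-fold. A further 87 genes lie beyond the y axis limits of 6, and the members reach from -3.02 for Smarcd3 to 1.96 for Actl6a.

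Next, the paralogs were compared position by position, beginning with the catalytic subunits. Smarca4 encodes BRG1, the ATPase of esBAF. It was at 103 FPKM in D0, 85.7 in D3, 101 in D6T-, 83.4 in D9T-, 91.4 in D12S+, 66.3 in D16S+, 84.2 in iPSCs and 100.4 in mESCs. In the other fractions it was at 94.2 FPKM in D6T+, 83.6 in D9T+, 86.9 in D12S- and 75.3 in D16S-. The highest level was 1.56 times the lowest, the narrowest range of the 10 genes, and both day 16 libraries were below the other 10. Its sign between mESCs and D0 depended on scaling, with -0.04 as deposited and 0.09 with libraries scaled to the same total.

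Smarca2 encodes BRM, the alternative ATPase, and had the widest range, 31.8 times from lowest to highest. It was at 7.88 FPKM in D0, 10.5 in D3, 20.8 in D6T-, 27.6 in D9T-, 11.6 in D12S+, 4.51 in D16S+, 1.06 in iPSCs and 0.869 in mESCs. The Thy-1+ and SSEA-1- fractions had 16.8 FPKM in D6T+, 23.0 in D9T+, 21.5 in D12S- and 16.1 in D16S-. Low Smarca2 was thus seen at the pluripotent end, but the route there was not monotonic: the level in D9T- was above that in D0 (log2 difference from D6T- to D9T- of 0.40, after 0.92 from D3 to D6T-), and the steps to D12S+, D16S+ and iPSCs were -1.18, -1.20 and -1.42. Both fractions of day 9 were high, and in the SSEA-1- fractions the level was still above D0 on day 16.

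Smarca4 was the higher of the ATPase pair in 12 of 12 libraries. Its share of the summed FPKM of Smarca4 and Smarca2 was 92.9% in D0, 75.1% in D9T-, 93.6% in D16S+, 98.8% in iPSCs and 99.1% in mESCs. D16S- had a share of 82.4%. The log2 ratio of Smarca4 to Smarca2 was 3.55 in D0 and 3.61 in D16S+, so the end points differed from D0 by 1.82 (iPSCs) and 2.21 (mESCs) while D16S+ differed by 0.06.

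The scaffold pair had the clearest change of order. Smarcc1 encodes BAF155, the core scaffold of esBAF. It was at 29.7 FPKM in D0, 35.9 in D3, 48.6 in D6T-, 40.2 in D9T-, 31.4 in D12S+, 48.0 in D16S+, 57.1 in iPSCs and 50.1 in mESCs. D6T+ had 32.6 FPKM, D9T+ 24.4, D12S- 25.1 and D16S- 22.3. The end points were highest and D16S- lowest, and the ratio of iPSCs to D0 was 1.92.

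Smarcc2 encodes BAF170, the paralog of BAF155 that esBAF is known for lacking. It was at 58.2 FPKM in D0 and 28.3 in D3, followed by 28.7 in D6T-, 24.7 in D9T-, 16.8 in D12S+, 10.4 in D16S+, 13.4 in iPSCs and 17.2 in mESCs. The remaining fractions had 45.3 FPKM in D6T+, 36.7 in D9T+, 23.9 in D12S- and 27.4 in D16S-. D0 was the highest library, and the step from D0 to D3 (-1.01 on the log2 scale) was the largest of the 6 steps towards iPSCs. The Thy-1+ fractions of days 6 and 9 were above D3.

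Smarcc1 made up 33.8% of the summed FPKM of the scaffold pair in D0, 55.9% in D3, 62.9% in D6T-, 62.0% in D9T-, 65.1% in D12S+, 82.2% in D16S+, 80.9% in iPSCs and 74.4% in mESCs. Its share was 41.9% in D6T+, 39.9% in D9T+, 51.2% in D12S- and 44.8% in D16S-. Smarcc1 therefore exceeded Smarcc2 in 8 of 12 libraries, and the 4 in which it did not were D0, D6T+, D9T+ and D16S-. The summed level of the pair ranged from 48.2 FPKM in D12S+ to 87.9 in D0, which is 1.82 times, while the log2 ratio moved from -0.95 in D0 to 2.01 in iPSCs.

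**Figure D3:**
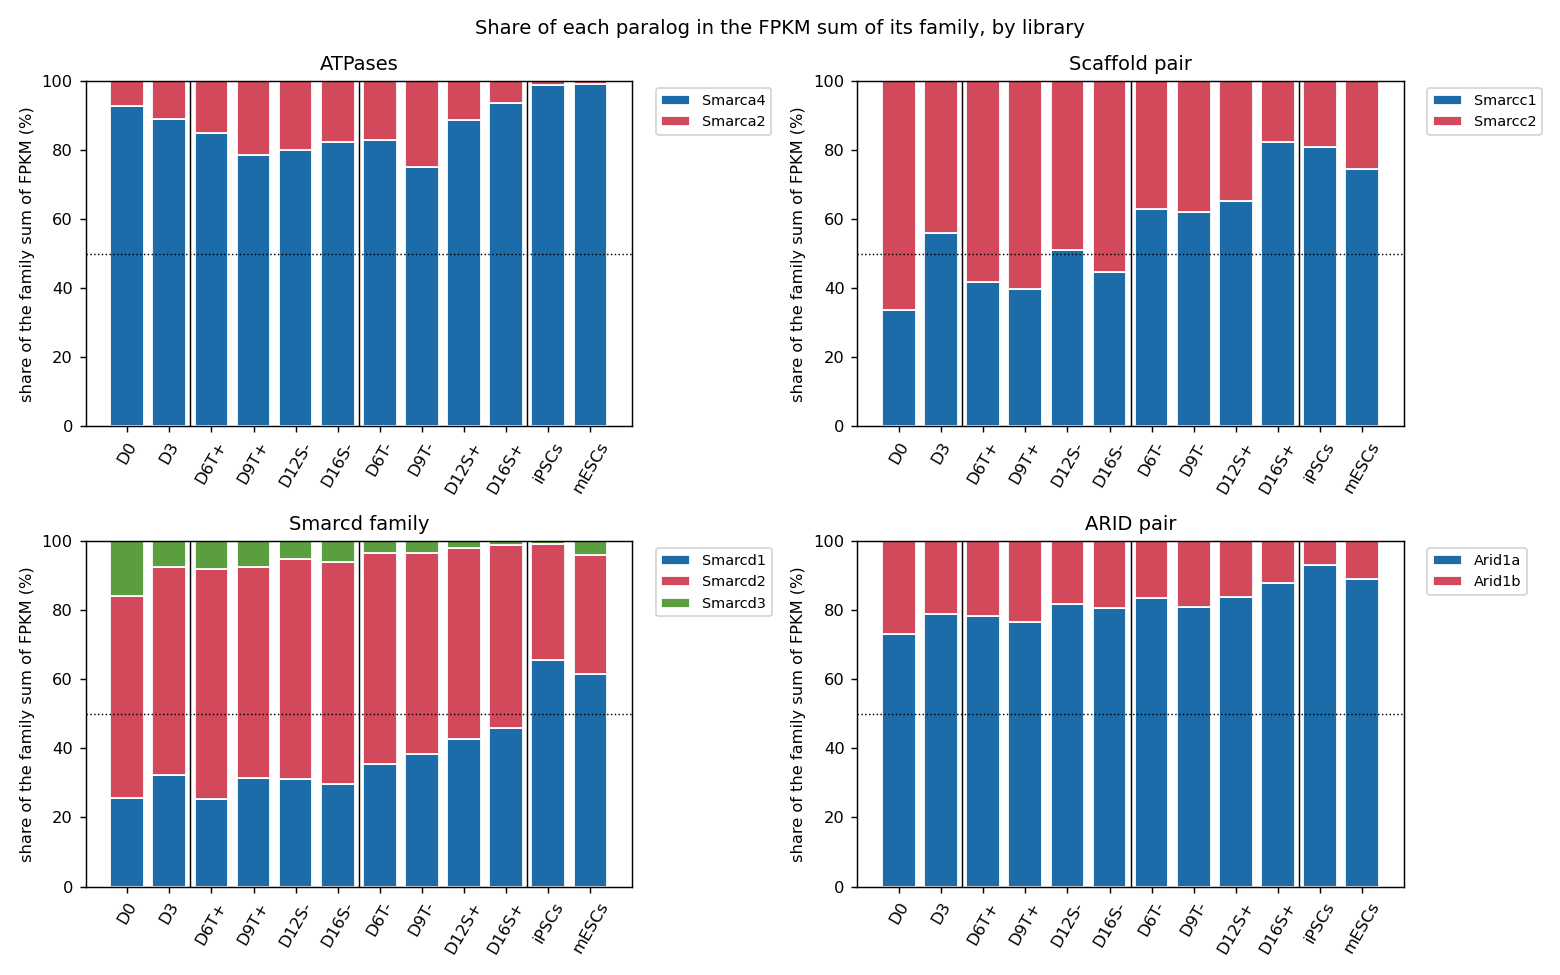
Share (%) of each paralog in the summed FPKM of its family, 1 bar per library, with a dotted line at 50% and vertical lines that separate D0 and D3, the Thy-1+ or SSEA-1- fractions, the Thy-1- or SSEA-1+ fractions, and the end points. Smarcc1 is above 50% in D3, in all 4 Thy-1- or SSEA-1+ fractions, in both end points and, at 51.2%, in D12S-, and Smarcd1 is above 50% in iPSCs and mESCs only.

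Smarcd genes encode the BAF60 proteins, which link the complex to transcription factors. Smarcd1 (BAF60A), the member used in esBAF, was at 21.5 FPKM in D0, 20.4 in D3, 36.5 in D6T-, 43.0 in D9T-, 54.7 in D12S+, 53.4 in D16S+, 72.6 in iPSCs and 101 in mESCs. It was at 18.7 FPKM in D6T+, 27.2 in D9T+, 31.3 in D12S- and 25.9 in D16S-. The 5 libraries of the Thy-1- or SSEA-1+ fractions of days 9 to 16 and of the end points were the 5 highest.

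Smarcd2 (BAF60B), a paralog studied mainly in blood cells, was the major Smarcd transcript in the fibroblasts and in most other libraries. Its level was lowest in iPSCs at 37.2 FPKM, had a median of 56.6 and was highest in D12S+ at 70.9, with 48.6 in D0 and 57.1 in mESCs. Smarcd1 exceeded Smarcd2 in 2 of 12 libraries, iPSCs and mESCs. D16S+, at 53.4 and 62.0 FPKM, had not passed that point.

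Smarcd3 (BAF60C), known for its part in heart and muscle development, was the lowest of the family. It was at 13.4 FPKM in D0, 4.72 in D3, 3.60 in D6T-, 3.88 in D9T-, 2.38 in D12S+, 1.21 in D16S+ and 0.773 in iPSCs, but at 6.37 in mESCs. The other fractions were close to each other, with 5.87 FPKM in D6T+, 6.47 in D9T+, 5.13 in D12S- and 5.16 in D16S-. The largest step was again that from D0 to D3 (-1.33), and the end points disagreed, with mESCs above every Thy-1- or SSEA-1+ fraction.

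Within the Smarcd family, the share of Smarcd1 was 25.8% in D0, 45.8% in D16S+, 65.6% in iPSCs and 61.4% in mESCs, that of Smarcd2 was 58.2%, 53.1%, 33.7% and 34.7%, and that of Smarcd3 was 16.0%, 1.04%, 0.699% and 3.87%. D16S- held 29.7%, 64.4% and 5.93% of the 3 paralogs. From D0 to iPSCs, the log2 ratio of Smarcd1 to Smarcd3 differed by 4.73 and that of Smarcd1 to Smarcd2 by 2.08. In mESCs the difference from D0 was 3.14 for the former and 1.95 for the latter.

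Arid1a and Arid1b encode BAF250A and BAF250B, the large DNA-binding subunits of the canonical complex, which exclude each other. Arid1a was at 22.0 FPKM in D0, 28.2 in D3, 39.9 in D6T-, 34.7 in D9T-, 38.5 in D12S+, 44.0 in D16S+, 80.1 in iPSCs and 39.4 in mESCs. It was at 27.5 FPKM in D6T+, 29.1 in D9T+, 30.1 in D12S- and 27.5 in D16S-. D0 was lowest and iPSCs stood 1.01 above mESCs on the log2 scale. mESCs lay among the Thy-1- and SSEA-1+ fractions.

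Arid1b had a lowest level of 4.85 FPKM in mESCs, a median of 7.52 and a highest level of 8.91 in D9T+, with 8.10 in D0 and 5.87 in iPSCs. The share of Arid1a in the pair was 73.1% in D0, 88.0% in D16S+, 93.2% in iPSCs and 89.0% in mESCs, and 80.8% in D16S-. Arid1a was the higher of the ARID pair in 12 of 12 libraries, so the order of the paralogs did not reverse.

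Actl6a encodes BAF53A, an actin-like subunit of dividing cells that also belongs to other remodelling and acetyltransferase complexes. It had the largest upward difference of the members between D0 and iPSCs, while between D0 and mESCs that of Smarcd1 was larger (2.18 against 1.88). Actl6a was at 26.1 FPKM in D0, 26.2 in D3, 37.2 in D6T-, 35.9 in D9T-, 48.7 in D12S+, 87.2 in D16S+, 104 in iPSCs and 98.9 in mESCs. As deposited, the Thy-1+ and SSEA-1- fractions were below D0, at 24.2 FPKM in D6T+, 19.03 in D9T+, 23.1 in D12S- and 16.9 in D16S-. Each of the 4 Thy-1- or SSEA-1+ fractions was thus above each of the 4 others. With libraries scaled to the same total FPKM (multiplier 0.836 for D0), D6T+ and D12S- were above D0, while D9T+ and D16S- stayed below it. iPSCs had 3.99 times the FPKM of D0. Its paralog Actl6b, the subunit of neurons, reached at most 0.102 FPKM in any library.

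The sorted fractions of the same day were then compared to see which members differ between the paths. A gene was counted as higher or lower on all days when the Thy-1- or SSEA-1+ fraction was above or below its counterpart on days 6, 9, 12 and 16, whatever the size. By that count 5 members were higher (Smarcc1, Smarcd1, Smarcd2, Arid1a and Actl6a), where 23.2% of all genes were. Both Smarcc2 and Smarcd3 were lower, where 24.8% of all genes were. Smarca4, Smarca2 and Arid1b had mixed signs.

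Differences between fractions were below 2-fold for all 10 members on day 6 and on day 9. On day 6, 2.93% of all genes were higher and 9.47% lower in D6T- by at least 2-fold, and on day 9 1.81% and 6.45% in D9T-. The largest differences were 0.93 for Smarcd1 on day 6 and 0.88 for Actl6a on day 9. On day 12, Actl6a was past 2-fold, with 1.05 in D12S+ against D12S-, and no member was at least 2-fold lower, against 4.79% and 3.03% of all genes. Smarcd3, with -0.86 on the log2(FPKM + 1) scale, was not counted there, though its FPKM ratio was 0.465.

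Day 16 had the widest differences. In D16S+, 3 members were at least 2-fold higher than in D16S-: Actl6a (log2 difference 2.30), Smarcc1 (1.07) and Smarcd1 (1.02). Another 3 were at least 2-fold lower: Smarca2 (-1.63), Smarcd3 (-1.48) and Smarcc2 (-1.32). Of all genes, 11.8% were higher and 15.2% lower by that measure. Smarcc1 and Smarcd1 lay just inside the threshold and Arid1a (0.66) outside it. In the same libraries the fibroblast marker sum was 32.6 FPKM against 422 and the leukocyte sum 68.6 against 135. Of the leukocyte sum, Cd68 gave 62.0 FPKM in D16S+ and 115 in D16S-, while Ptprc was at 0 and 0.0269. The part of either marker sum in these differences was not tested.

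**Figure D4:**
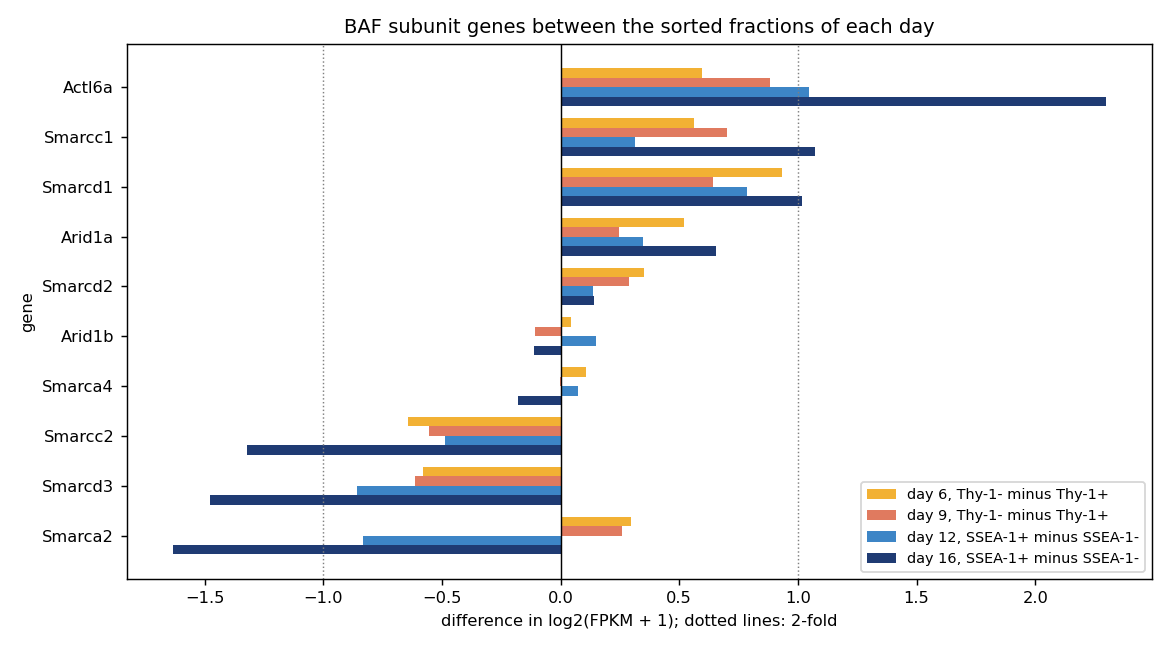
Difference in log2(FPKM + 1) between the fractions of each sorting day (Thy-1- minus Thy-1+ on days 6 and 9, SSEA-1+ minus SSEA-1- on days 12 and 16) for the 10 genes, 1 bar per day, with dotted lines at 2-fold. Actl6a reaches 2.30 on day 16, and the bars of Smarca2 point to the right on days 6 and 9 and to the left on days 12 and 16.

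The log2 ratio of Smarcc1 to Smarcc2 was higher on the successful path on 4 of 4 days, by 1.20, 1.26, 0.80 and 2.40 on days 6, 9, 12 and 16. Smarcd1 to Smarcd3 differed by 1.26 to 2.50 over the 4 days, Smarcd1 to Smarcd2 by 0.35 to 0.88 and Arid1a to Arid1b by 0.20 to 0.77, each in the same direction on all 4. Smarca4 to Smarca2 was the exception, at -0.19 and -0.26 on the days sorted by Thy-1 and 0.90 and 1.45 on those sorted by SSEA-1. Day and marker cannot be told apart in that step.

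SSEA-1- cells of day 16 were also compared with the starting fibroblasts. There, 0 members were at least 2-fold higher than in D0 and 2 were lower (Smarcd3 with -1.22 and Smarcc2 with -1.06), against 12.8% and 11.4% of all genes. Smarca2 was 0.94 above D0 on the log2(FPKM + 1) scale, so it was not counted, though its FPKM ratio was 2.04. The counts are for values as deposited and change with libraries scaled to the same total FPKM. That scaling lowers D0 (multiplier 0.836) and raises D16S-. Under it Smarcd3 and Smarcc2 fell short of 2-fold, and Smarca2 passed it. The log2 ratio of Smarcc1 to Smarcc2 was 0.66 above that of D0 in D16S-, and 3.05 above it in D16S+.

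iPSCs and mESCs differed by at least 2-fold in 2 members. Arid1a was higher in iPSCs (1.01), where 6.79% of all genes were, and Smarcd3 was lower (-2.05), where 7.41% were. The intervals overlapped for both. Smarcc1, Smarca2 and Actl6a each differed by at most 0.19 between iPSCs and mESCs on the log2 scale.

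Members were also compared by the shape of their profile. Over the 12 libraries, the highest Pearson correlations of log2 values between members were 0.89 for Smarcd1 with Actl6a, 0.87 for Smarcc1 with Actl6a and 0.85 for Smarcc2 with Smarcd3. The lowest was -0.87 for Smarcd3 with Arid1a. Among all kept genes, those most like Actl6a were Rfc5 (0.99), Sgol1 (0.99) and Suv39h2 (0.99). Rfc5 encodes a subunit of the clamp loader of DNA replication and was at 28.3 FPKM in D0, 124 in iPSCs and 20.5 in D16S-. Those most like Smarcd3 were Ttyh2 (0.96), Cela1 (0.95) and Fuca1 (0.95). Ttyh2 was at 54.1 FPKM in D0, 4.42 in iPSCs and 24.6 in mESCs. These points share library, depth and the trend from D0 to the end points, and the values are descriptions.

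Finally, the other subunits of BAF complexes were examined in a list of 20 genes. All 20 were in the table and 18 passed the filter, Actl6b and Bcl11b being too low. Between D0 and iPSCs, 14 of the 18 differed by less than 2-fold, 3 were higher and 1 was lower, where 18.7% and 21.6% of all genes were, and the median was 0.15 against 0.03 for all genes. Smarcb1, a core subunit of canonical complexes, was at 108 FPKM in both libraries. At least 2-fold higher in iPSCs were Bicral (2.31), Arid2 (1.36) and Dpf3 (1.04), and Bicra was lower (-1.29). Arid2, which defines the PBAF form, was at 3.49 FPKM in D0 and 10.5 in iPSCs, and Dpf3 did not exceed 1.27. In mESCs, 3 of the 18 were at least 2-fold higher than in D0 (Bicral, Dpf1 and Arid2) and 1 was lower (Bicra), against 20.7% and 21.9% of all genes. Between D16S+ and D16S-, 1 was higher (Ss18, 1.05) and 0 were lower, against 11.8% and 15.2% of all genes.

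Bicra and Bicral encode paralogous subunits of the non-canonical BAF complex, and are listed as Gltscr1 and Gltscr1l in the table. Bicra was at 18.6 FPKM in D0, 11.4 in D3, 11.7 in D6T-, 8.92 in D9T-, 8.85 in D12S+, 5.72 in D16S+, 7.05 in iPSCs and 3.45 in mESCs. Bicral was at 2.65 FPKM in D0, 3.81 in D3, 4.88 in D6T-, 5.09 in D9T-, 10.2 in D12S+, 10.0 in D16S+, 17.1 in iPSCs and 9.69 in mESCs. Bicral was the higher of the pair in 4 of 12 libraries, D12S+, D16S+, iPSCs and mESCs. In D16S-, Bicra was at 8.53 FPKM and Bicral at 4.57.

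**Figure D5:**
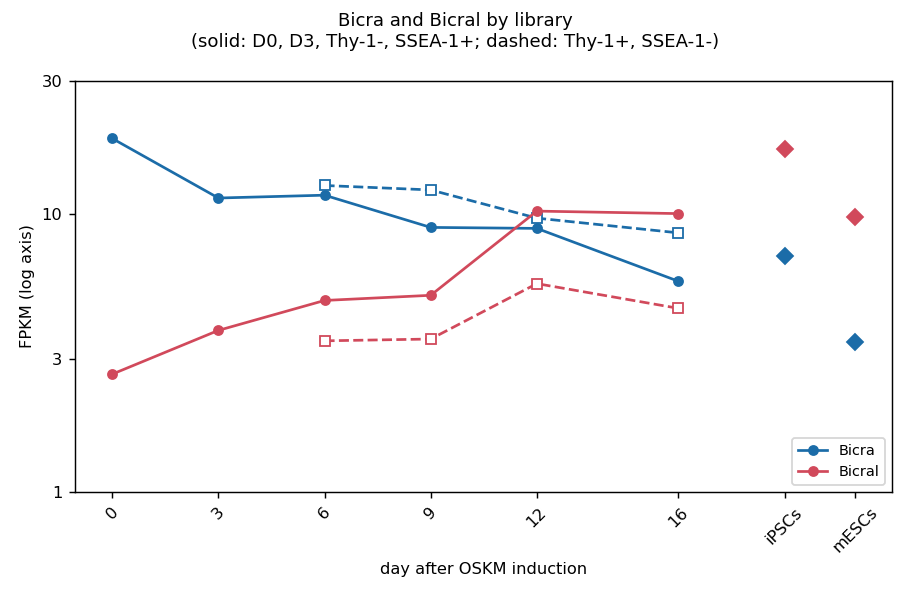
FPKM (log axis) of Bicra and Bicral by day after OSKM induction, 1 library per point, with solid lines for D0, D3 and the Thy-1- or SSEA-1+ fractions, dashed lines for the Thy-1+ or SSEA-1- fractions and diamonds for iPSCs and mESCs. The solid lines cross between D9T- and D12S+, and the dashed lines stay apart up to day 16, with Bicra at 8.53 FPKM and Bicral at 4.57 FPKM.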

How the data were processed

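The authors prepared mRNA libraries (with a stranded kit per the labels, while the methods name a kit without saying so) from MEFs, reprogramming cells, iPSCs and mESCs, aligned reads to mm9 with STAR, dropped reads with over 2 mismatches or more than 1 locus, and estimated expression with cuffdiff. The deposited values are FPKM with the lower and upper end of an interval, 1 library per condition. Versions, annotation and library scaling are not given in the sources used here. Removal of reads with several loci can lower genes that have near-identical copies. No fragment totals are given, so precision per value is known only from the intervals. The 12 columns of status words, 1 per library, were not used.

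Columns were matched to titles by day, with "pos" and "neg" read as the sign of the sorting marker. Values were analysed as log2(FPKM + 1) with a threshold of 2-fold, keeping genes of at least 1 FPKM in at least 1 library. Correlations, fold counts and depth steps were tested on simulated data. Depth relative to D0 came from the most common ratio of 2 libraries' values in genes below 0.5 FPKM. Gene positions are those of GENCODE M1 (mm9), and all 10 overlapped the table's locus. RefSeq windows were given for all 10 genes. Python 3.11.15, pandas 2.3.3 and numpy were used. With 0 replicates no test was run.

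The members and lists were chosen with earlier results of these data known. Named besides the members are genes of the BAF and remodelling ATPase lists at least 2-fold apart between D0 and iPSCs, list extremes, Actl6b, and the 3 genes most like the members of largest difference. Genes singled out for mESCs or day 16, Smarcb1 and Chd4 were added after their values were seen.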

Additional observations from a re-analysis of the deposited data

Results flagged for a closer look

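Several members went opposite ways in groups that share a contrast, with 1 library per group, and none of these differences was tested. Smarca2 was higher in the Thy-1- fraction by 0.29 on day 6 and 0.26 on day 9, and lower in the SSEA-1+ fraction by a log2 difference of -0.83 on day 12 and -1.63 on day 16. From D0 to day 16, Smarca2 differed by -0.69 in D16S+ and 0.94 in D16S-. Smarcc1 differed by 0.67 in D16S+ and -0.40 in D16S-, and Actl6a by 1.70 in D16S+ and -0.60 in D16S-. Opposite changes were listed when both were at least 0.25 on the log2 scale. All are values as deposited, and scaling to the same total FPKM makes the falls from D0 to day 16 smaller.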

How the results depend on the processing

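Of 129 recomputations, 110 stayed within 0.5 on the log2 scale (or within 1.5 times for counts), 19 moved beyond and 0 reversed direction. A count could only stay or move, so a reversal was possible only for the log2 values. Scaling to the same total FPKM or by the median of ratios moved no result beyond these margins. Scaling acts alike on both genes of a pair, so it nearly cancels in the ratios. Dropping the filter or a filter of 5 FPKM moved none either, but every member exceeded 5 FPKM in some library (Arid1b, the lowest, reached 8.91). Those settings could therefore alter only the medians of the other gene lists. Yet the same-total scaling shifted the all-gene median from 0.03 to 0.18 (iPSCs against D0) and from 0.05 to 0.35 (D16S+ against D0). The factors of the median of ratios lay between 1.00 and 1.02, so it shows little. The multipliers of the same-total scaling lay between 0.836 and 1.12. No log2 value could therefore pass the 0.5 margin under it, and only counts could move. Counts of D16S- against D0, which change under it, were not among the 129. Nor were the differences of Smarca4 in mESCs against D0 and in D9T- against D9T+, whose signs turned under it. With a pseudocount of 0.1, the ratio shifts from D0 to iPSCs became 2.49 for Smarca4/Smarca2 and 5.70 for Smarcd1/Smarcd3, the Smarcd1/Smarcd3 difference on day 16 became 3.05, and the changes of Smarca2 and Smarcd3 became -2.78 and -3.95. At 4-fold, 0 members were higher in iPSCs than in D0, 1 was higher and 1 lower in mESCs, and 1 was higher and 0 lower in D16S+ than in D16S-. At 1.5-fold, 4 were higher and 4 lower in mESCs. With mESCs as the end point, the shift was 2.43 for Smarcc1/Smarcc2, 3.14 for Smarcd1/Smarcd3 and 1.45 for Arid1a/Arid1b. With D16S+ it was 0.0596 for Smarca4/Smarca2, 0.93 for Smarcd1/Smarcd2, 3.97 for Smarcd1/Smarcd3 and 1.35 for Arid1a/Arid1b. The cause of these last differences was not tested. No paired analysis was possible because the conditions have no replicates with shared numbers; fractions were set side by side within each day, without a test. Depth limits the low genes most, Smarca2 in both end points and Smarcd3 in iPSCs among them.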

Other observations

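The ATPases of other remodelling complexes were measured in a list of 18 genes, of which 17 were in the table and 16 passed the filter. Between D0 and iPSCs, 6 were at least 2-fold higher (Hells, Smarcad1, Atrx, Chd1, Smarca5 and Ino80), 1 was lower (Chd3) and 9 differed less, where 18.7% of all genes were higher and 21.6% lower. The median was 0.77 against 0.03 for all genes. In mESCs, 3 were higher than in D0 and 1 was lower, against 20.7% and 21.9% of all genes. Between D16S+ and D16S-, 4 were higher and 1 lower, against 11.8% and 15.2%. Hells, a helicase needed for DNA methylation, had 1.20 FPKM in D0 and 1.25 in D16S-, against 11.8 in iPSCs and 6.02 in mESCs. Smarcad1 was at 1.47 FPKM in D0 and 10.8 FPKM in iPSCs but at 2.45 FPKM in mESCs, and Atrx was at 1.77, 7.55 and 1.18 FPKM in the same order.

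Chd3 and Chd4 are paralogous ATPases of the NuRD complex. They were at nearly the same level in D0, at 99.9 FPKM and 104 FPKM. Chd3 was at 48.7 FPKM in D9T-, 12.0 FPKM in D16S+, 11.2 FPKM in iPSCs and 13.1 FPKM in mESCs, and at 28.6 FPKM in D16S-. Chd4 was at 132 FPKM in D9T-, 126 FPKM in D16S+, 149 FPKM in iPSCs, 161 FPKM in mESCs and 127 FPKM in D16S-. Chd4 was the higher of this pair in 12 of 12 libraries.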
